A study of Rattus norvegicus with 23 samples.

Results

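The response measured here is that of the lungs of elderly rats at the end of a 4-week inhalation of titanium dioxide nanoparticles (TiO2), on the day named D0, against rats that had breathed filtered air. The samples were those whose titles give the lung, the treatment and day 0: 5 exposed and 6 control rats, 11 of the 23 arrays of the series, with 1 rat per array. The other 12 arrays, 6 control and 6 exposed rats of day 28 after the exposure (D28), show where D0 differed from them. They also entered the normalization, the probe filter and the estimate of spread behind the tests of D0.

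All rats were F344 males, 19 months old when the exposure began. The exposed rats inhaled an aerosol of TiO2 P25 at 10 mg/m3 through the nose, 6 h per day on 5 days per week, and the controls were held in the same way in filtered air. Total RNA of the accessory lobe, a small lobe of the right lung, was hybridised to single-colour rat expression arrays. A sixth exposed rat of D0 is not analysed here, and the lobe is a mixture of airways, alveoli, vessels and blood.

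Inhaled particles that reach the alveoli are engulfed by alveolar macrophages, which carry them to the lysosome and release signals that act on the epithelium and recruit blood leukocytes. Acute-phase proteins are secreted proteins whose levels rise in inflammation, best known from the liver and made in part by lung epithelium and macrophages too. Particles in the lung are also known to be followed by division of epithelial cells and macrophages, which uses a common set of genes for the passage through mitosis.

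The levels below are log2 normalized signals. A FC is the ratio of the exposed to the control mean, its log2 is given with the standard error (SE), and adjusted p are Benjamini-Hochberg values of limma over all genes, with n = 5 exposed and n = 6 control rats. The spread behind SE and p was shared over the 4 groups of D0 and D28. A differentially expressed gene (DEG) passed a limit of 0.05 on the adjusted p and of 1.5 on the FC, and is called over-expressed or under-expressed by the direction in exposed rats. Probe positions are those of the array files in the build rn4, and levels of different genes come from different probes and are not compared with each other.

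The arrays carried the markers of lung. The surfactant genes Sftpc and Sftpb of type II pneumocytes, Scgb1a1 of secretory airway cells and Ager of type I pneumocytes were well above background on all 11 arrays. Alb and Apoa1 of hepatocytes, Nppa of the cardiac atrium and Dntt of thymocytes were so on none. Tnnt2 of cardiac muscle, Acta1 and Ckm of skeletal muscle and Cd1d1, also fixed as a thymocyte marker, were well above background on all 11 arrays. Marco, a scavenger receptor used as a marker of alveolar macrophages, was well above background on 2 exposed arrays and on no control array. The 75th percentile of the array signal was 2276 ± 569 in exposed and 2338 ± 419 in control rats (SD, exact permutation p = 0.835), and the share of spots well above background was 73.9% and 73.2% (exact permutation p = 0.643). The arrays of D0 came from 4 slides, and each of these held both exposed and control rats. Exposed rat 4 stood apart from the other exposed rats in several gene groups, and its value is given for some of the results that rest on it. Its array had the lowest 75th percentile of the 11 arrays, 1445, and the smallest share of spots well above background, 69.5%. Its median correlation with the other arrays of its group, 0.977, was also the lowest. Exposed rat 5 had the next lowest 75th percentile of the exposed arrays, 1932. The part of array quality in the values of these rats was not tested.

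Of 23029 genes tested, 252 were over-expressed and 160 under-expressed, which is 1.09% and 0.695% of all genes and 1.79% together. The median FC was 1.94 among the over-expressed and 1.69 among the under-expressed DEGs. A FC of at least 2 was reached by 114 over-expressed and 44 under-expressed DEGs, and a FC of at least 4 by 17 and 3. In 992 genes, or 4.31%, the exposed and the control arrays did not overlap, 447 with all exposed rats higher and 545 with all lower. Of the 412 DEGs, 315 were among these. Within the 4 slides taken one by one, 395 of the 412 DEGs had the same direction in all of them. The slides hold the same arrays that gave the calls, so this count is a description and no separate check. The number of under-expressed DEGs fell to 101 without exposed rat 4 and to 102 without exposed rat 5, while the over-expressed DEGs numbered 239 and 230.

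**Figure D1:**
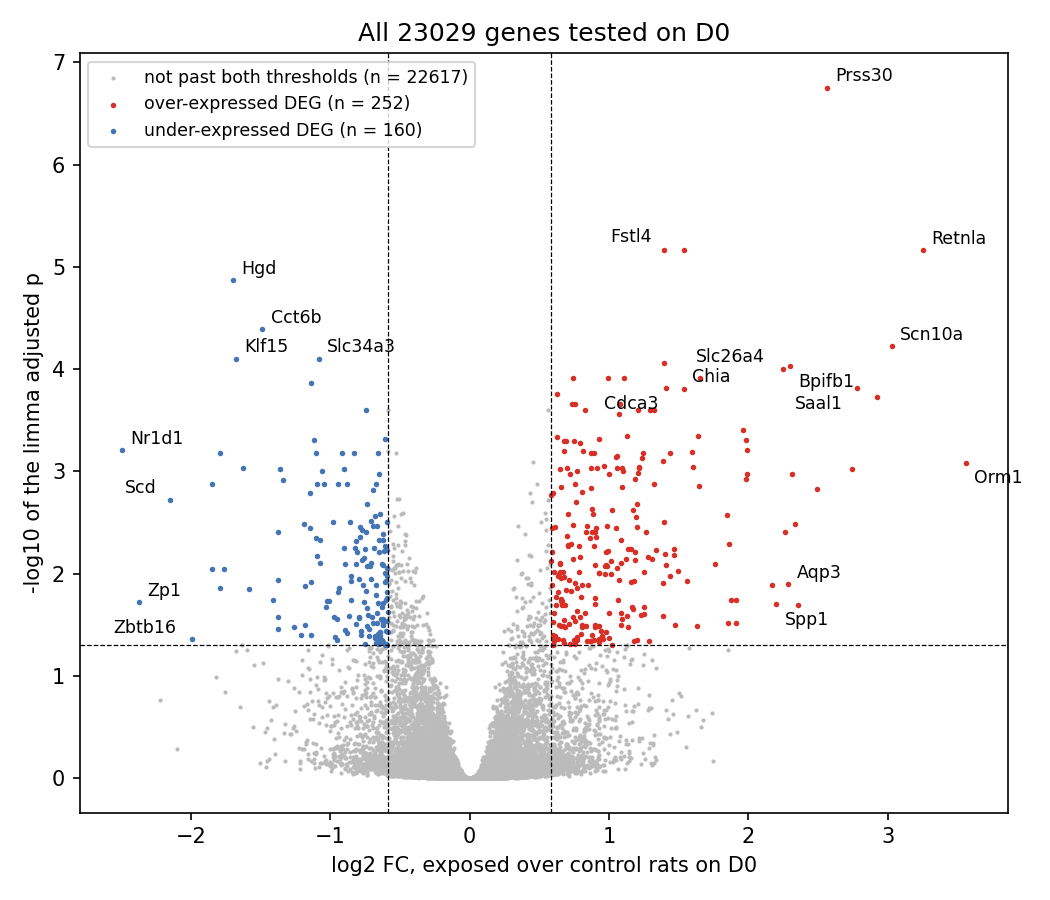
Each point is one of the 23029 genes tested, with the log2 FC of exposed over control rats on the x axis and the negative log10 of the adjusted p on the y axis, and dashed lines at the thresholds of a DEG. The 252 over-expressed DEGs reach further than the 160 under-expressed ones, with Prss30, Retnla, Scn10a and Orm1 at the outer right and Nr1d1, Zp1 and Scd at the outer left.

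The over-expressed DEGs with the largest FC included secreted proteins of the acute phase and of the airway surface. Orm1, the acute-phase protein alpha-1-acid glycoprotein (probe at chr5:80326525-80326584), had levels of 10.22, 9.64, 9.73, 7.71 and 9.43 in exposed rats 1 to 5 and a lowest, median and highest level of 4.77, 5.80 and 6.76 in the controls. The groups did not overlap, exposed rat 4 was the lowest of the exposed rats, and the FC was 11.8 (log2 FC 3.56 ± 0.56, adjusted p = 0.000821). Retnla, a small secreted protein known from alternatively activated macrophages and inflamed airway epithelium (probe at chr11:53206606-53206665), was at 13.15, 12.88, 12.66, 11.26 and 12.19 in exposed rats and at 8.60, 9.19 and 9.79 in controls. All exposed rats lay above all controls, and the FC was 9.53 (log2 FC 3.25 ± 0.31, adjusted p = 6.85e-06). Saal1 is named for its likeness to the acute-phase protein serum amyloid A, and whether it is itself secreted or an acute-phase protein was not tested. It was at 13.93, 13.23, 13.29, 11.45 and 13.08 against 9.50, 10.25 and 10.84, again with no overlap and with exposed rat 4 the lowest (log2 FC 2.78 ± 0.36, adjusted p = 0.000153). Itih1, a heavy chain of the inter-alpha-trypsin inhibitor family that binds hyaluronan, rose by 1.96 on the log2 scale (SE 0.28, adjusted p = 0.00039).

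Bpifb1, a secreted protein of the airway lining from the family of bactericidal permeability proteins, was at 12.64, 12.51, 12.45, 11.36 and 12.19 in exposed rats and between 9.75 and 10.09 in controls. The controls differed little among themselves, and all exposed rats were higher (log2 FC 2.30 ± 0.28, adjusted p = 9.42e-05). Slc26a4 encodes pendrin, an anion exchanger of the apical airway membrane, and was at 10.64, 10.27, 10.07, 8.995 and 9.81 against 7.39, 7.76 and 7.92 in the controls. These groups did not overlap either (log2 FC 2.25 ± 0.27, adjusted p = 9.92e-05). Aqp3, a water and glycerol channel of airway basal cells, varied more, with 11.93, 10.27, 10.10, 11.14 and 12.31 in exposed rats and 8.06, 8.78 and 9.99 in controls. Its lowest exposed rat lay just above its highest control, and the log2 FC was 2.29 ± 0.50 (adjusted p = 0.0126). Ccl7, a chemokine that attracts monocytes, had a log2 FC of 1.99 ± 0.30 (adjusted p = 0.000625).

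Prss30, a serine protease (probe at chr10:13226073-13226132), had the smallest adjusted p of all genes, 1.77e-07. It was at 9.97, 10.08, 10.38, 9.80 and 10.21 in exposed rats and at 7.34, 7.49 and 7.79 in controls, with no overlap and a narrow spread in both groups (log2 FC 2.56 ± 0.19). Scn10a, a voltage-gated sodium channel known from sensory neurons (probe at chr8:124578227-124578286), was at 6.90, 7.02, 6.73, 5.62 and 5.63 in exposed rats and at 2.68, 3.17 and 4.12 in controls. Its probe was well above background in all 5 exposed rats and in 1 of 6 controls. Its log2 FC of 3.03 ± 0.35 (adjusted p = 5.95e-05) thus rests on control values near background, and it was 0.92 with normexp background correction, a method that leaves a larger offset under dim signals. The other 11 measured genes of the voltage-gated sodium channel list held no DEG, and the median log2 FC of the 12 was -0.20. Tnn, the matrix protein tenascin N, was well above background in 4 exposed rats and 1 control (log2 FC 2.33 ± 0.43, adjusted p = 0.00329), and Rasgef1c, an exchange factor for Ras proteins, in 5 and 2 (log2 FC 1.85 ± 0.33, adjusted p = 0.00269). The sizes of these changes also rest on dim controls. With normexp they were 0.61 for Tnn and 0.48 for Rasgef1c, which was then no DEG.

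Some over-expressed DEGs gave no level in controls. In 16 of the 252 the probe was not well above background on any control array while at least 1 exposed array measured it. The FC is then a lower bound against the lowest signal that counted as measured. Mab21l3 was at least 2.77-fold higher (adjusted p = 0.00019), and Crtac1, a secreted protein of type II pneumocytes, was at least 2.04-fold higher (adjusted p = 0.0012). Each was well above background on 4 of the 5 exposed arrays. Fosl1, a subunit of the transcription factor AP-1, was at least 1.06-fold higher, with the exposed level well above background on 3 of 5 arrays (adjusted p = 0.00105). Fosl1 was no DEG with another background correction, normexp, or in the deposited table, and Crtac1 was no DEG with normexp. Among the under-expressed DEGs, 4 had no exposed array well above background.

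The under-expressed DEGs with the largest FC included a clock repressor, a lipid enzyme and glucocorticoid-induced transcription factors. Nr1d1, the clock repressor REV-ERB alpha (probe at chr10:87543165-87543519), was at 7.05, 7.09, 6.86, 6.11 and 5.55 in exposed rats and at 8.47, 8.999 and 9.49 in controls, with no overlap (log2 FC -2.50 ± 0.37, adjusted p = 0.000625). Scd, stearoyl-CoA desaturase, which makes monounsaturated fatty acids and is abundant in type II pneumocytes (probe at chr1:249458860-249458919), was at 11.78, 12.56, 12.81, 12.31 and 11.43 against 13.62, 14.40 and 14.80. Every exposed rat was below every control, and the FC was 4.43 downwards (log2 FC -2.15 ± 0.37, adjusted p = 0.00189). Klf15, a transcription factor that glucocorticoids induce, was at 9.94, 10.27, 10.19, 9.43 and 9.62 against 11.33, 11.61 and 11.76, and fell by 1.68 on the log2 scale (SE 0.20, adjusted p = 7.9e-05). Zbtb16, another glucocorticoid-induced transcription factor, was at 7.36, 7.31, 6.74, 6.37 and 6.39 against 8.18, 8.84 and 9.46 (log2 FC -1.99 ± 0.53, adjusted p = 0.0435). Its groups did not overlap, but it remained a DEG in only 1 of the 11 fits that left out 1 rat.

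Hgd, homogentisate dioxygenase of tyrosine breakdown, was at 5.83, 6.20, 6.11, 5.42 and 5.65 in exposed rats and at 7.31, 7.56 and 7.70 in controls. Its log2 FC of -1.70 ± 0.17 had the smallest adjusted p among the under-expressed DEGs, 1.35e-05. Tent5b, a noncanonical poly(A) polymerase, was at 9.88, 9.90, 10.40, 9.77 and 9.65 against 11.47, 11.70 and 12.01 (log2 FC -1.79 ± 0.27, adjusted p = 0.000655). These 2 genes showed no overlap and a narrow spread in both groups. Dnase2b, an acid DNase, fell by 1.85 on the log2 scale (SE 0.31, adjusted p = 0.00132) with a measured level in only 2 of the 5 exposed rats, and its log2 FC was -0.63 with normexp. Slc1a6, a glutamate transporter, had a log2 FC of -1.76 ± 0.37 (adjusted p = 0.0091) with a measured level in 1 exposed rat. It was -0.35 with normexp and -0.56 in the deposited table, and Slc1a6 was no DEG in either. Zp1, an egg coat glycoprotein, had a log2 FC of -2.38 ± 0.55 (adjusted p = 0.0191), and Ccdc116 one of -1.79 ± 0.40 (adjusted p = 0.0138). The adjusted p of Zp1 passed 0.05 without exposed rat 1 or 4, up to 0.0678, and that of Ccdc116 without exposed rat 4, at 0.0524.

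**Figure D2:**
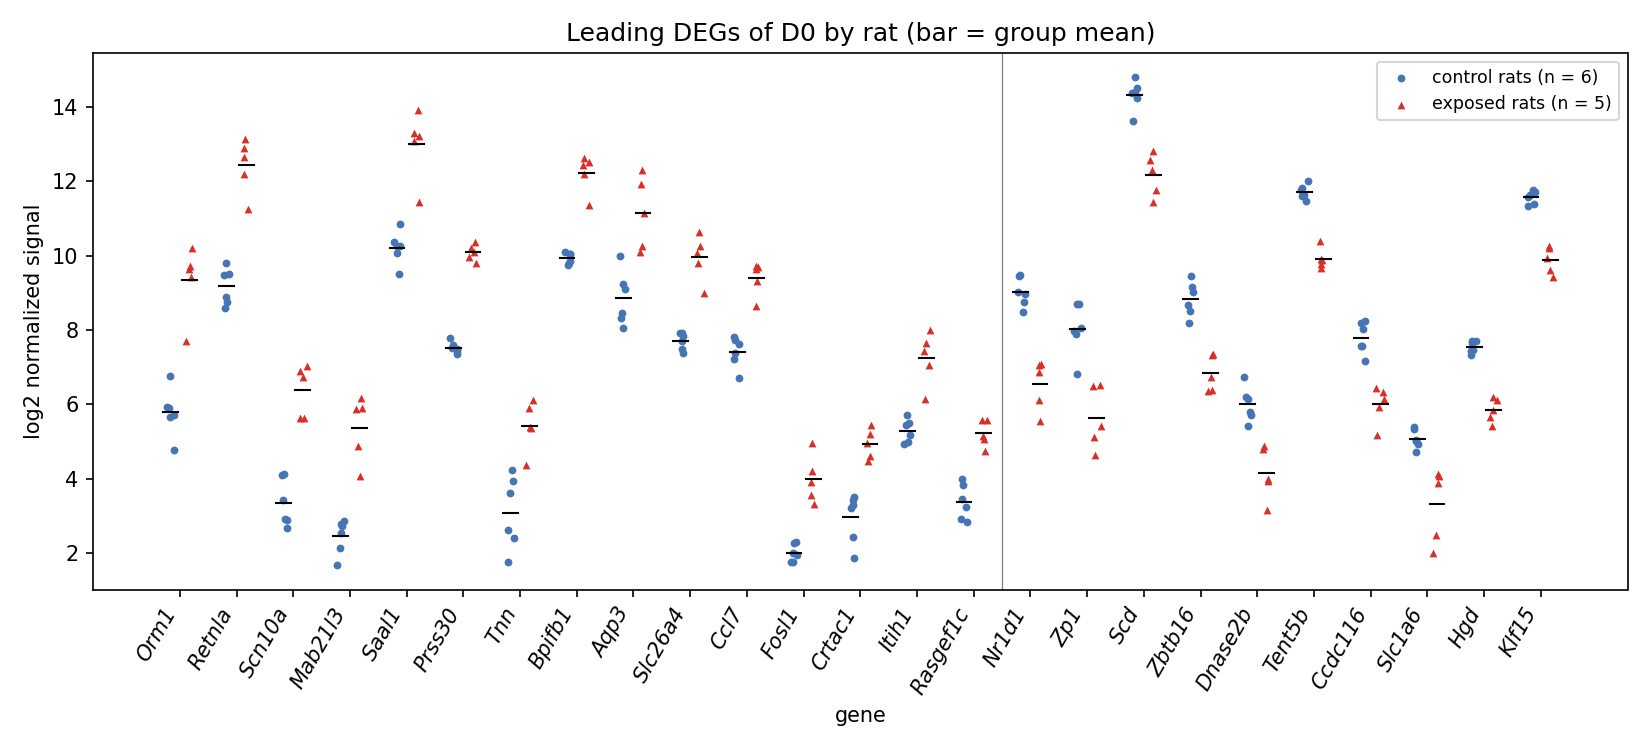
The log2 normalized signal of each of the 11 rats of D0 is shown for the 15 over-expressed genes (left of the grey line) and the 10 under-expressed genes with the largest FC among DEGs whose groups do not overlap, symbols of unnamed loci left aside; circles are the 6 control rats, triangles the 5 exposed rats and black bars the group means. One exposed rat, number 4, is the lowest triangle for Orm1, Retnla, Saal1 and Bpifb1, and the controls of Prss30 and Bpifb1 lie close together.

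Of the 10 DEGs with the smallest adjusted p, Fstl4, a follistatin-like protein, was at 10.33, 9.95, 10.25, 9.63 and 9.85 against 8.47, 8.62 and 8.71 (log2 FC 1.40 ± 0.14, adjusted p = 6.85e-06). Cct6b, a chaperonin subunit known from the testis, was at 6.77, 7.35, 6.94, 6.54 and 6.59 against 8.08, 8.35 and 8.52 (log2 FC -1.49 ± 0.16, adjusted p = 4.1e-05). Both genes had exposed and control rats well apart. Slc34a3, a sodium-phosphate cotransporter, fell by 1.08 on the log2 scale (SE 0.13, adjusted p = 7.9e-05). The loci LOC689757 and LOC689770, which RefSeq now lists as C-type lectin genes of the Clec2d family, had log2 FC of 1.54 ± 0.15 and 1.40 ± 0.17 (adjusted p = 6.85e-06 and 8.64e-05), and near-identical family members may share their probes' signal. Symbols of unnamed loci made up 29 of the over-expressed and 30 of the under-expressed DEGs. Among them LOC102549724, LOC103691626, LOC103691629 and LOC102555378 had log2 FC of 2.74, 2.49, 2.26 and 1.98, and RGD1309110, which RefSeq lists as the chitinase-like gene Chial1, had 1.87 ± 0.43 (adjusted p = 0.018). LOC102549724, LOC103691626 and LOC103691629 have probes close together on chr2, starting at 185776734, 185765356 and 185753449. That of LOC102555378 starts at chr6:49388822, near that of Slc26a4 at chr6:49394773. Whether such neighbours share signal or belong to the same locus was not tested.

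For a view by function, 57 lists of genes in 11 classes were drawn from general knowledge, with 7 to 77 measured genes each. They held 120 of the 412 DEGs, and 292 were in none. The lists are described by counts, medians and the values of single rats, beside a median log2 FC of -0.000694 over all genes. Their counts stand beside shares of 1.09% over-expressed and 0.695% under-expressed among all genes. At least 1 DEG was found in 44 lists and none in 13. In 13 lists the medians of the 5 exposed rats did not overlap those of the 6 controls.

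Genes of mitosis were over-expressed together. Of 59 measured genes of the list 34 were over-expressed DEGs and none under-expressed, against 1.09% of all genes, 57 of 59 had a positive log2 FC, and the median was 0.95. The median was smaller with normexp, at 0.43, and in the deposited table, at 0.49. 4 of the list's leading or best-known genes are shown with the 250 bases before their RefSeq start, since promoters of mitotic genes are known for repeats of CCAAT, bound by the factor NF-Y, and for the element TTTGAA, which recruits the DREAM repressor complex. The genes are Cdca3, a trigger of mitotic entry, at chr4:159320953-159321202 on the plus strand, Ect2, a regulator of cytokinesis, at chr2:111966627-111966876 on the minus strand, Ncapg, a condensin subunit, at chr14:69645446-69645695 on the minus strand, and Cdk1, the main mitotic kinase, at chr20:19265043-19265292 on the plus strand, all in the build GRCr8. Each runs 5′ to 3′ on the strand of its gene, and capitals mark CCAAT and TTTGAA on either strand (ATTGG and TTCAAA on the reverse).
Cdca3: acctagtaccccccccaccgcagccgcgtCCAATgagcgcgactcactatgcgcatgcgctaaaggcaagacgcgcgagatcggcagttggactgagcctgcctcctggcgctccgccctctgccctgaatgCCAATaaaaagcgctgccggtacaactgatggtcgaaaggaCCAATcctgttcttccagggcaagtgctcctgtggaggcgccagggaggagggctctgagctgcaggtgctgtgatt
Ect2: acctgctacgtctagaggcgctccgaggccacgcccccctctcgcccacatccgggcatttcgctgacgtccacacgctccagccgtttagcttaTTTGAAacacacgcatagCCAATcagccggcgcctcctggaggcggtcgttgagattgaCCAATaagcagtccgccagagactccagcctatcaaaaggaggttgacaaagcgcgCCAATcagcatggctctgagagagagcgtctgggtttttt
Ncapg: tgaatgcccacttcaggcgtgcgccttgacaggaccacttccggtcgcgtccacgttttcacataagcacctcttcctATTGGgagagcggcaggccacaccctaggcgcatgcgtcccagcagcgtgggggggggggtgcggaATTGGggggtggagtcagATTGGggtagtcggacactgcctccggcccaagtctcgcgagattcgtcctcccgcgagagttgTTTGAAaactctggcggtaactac
Cdk1: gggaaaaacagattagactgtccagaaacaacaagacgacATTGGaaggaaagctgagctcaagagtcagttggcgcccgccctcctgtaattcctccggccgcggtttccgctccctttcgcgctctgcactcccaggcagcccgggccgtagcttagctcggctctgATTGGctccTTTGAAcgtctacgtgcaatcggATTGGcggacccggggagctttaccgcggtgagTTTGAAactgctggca

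Each of these 4 stretches held CCAAT 3 times, and TTTGAA was found 0, 1, 1 and 2 times. Of the 52 mitosis genes with a RefSeq promoter 37 held CCAAT in these 250 bases (71.2%), and 26 held it at least 2 times. The shares were 34% and 9.42% of 33469 promoters and 36.6% and 11.9% of the 14597 genes tested that had one. TTTGAA was found in 25 of the 52, against 16.2% of all promoters and 13.1% of genes tested. The motifs were searched on both strands and can share only an end letter with each other, and a match is a match of letters only.

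Cdca3 was at 8.85, 9.10, 9.26, 8.83 and 8.79 in exposed rats and at 7.04, 7.49 and 8.11 in controls, and rose by 1.41 on the log2 scale (SE 0.18, adjusted p = 0.000153). Ect2 was at 8.42, 8.50, 8.72, 8.15 and 8.23 against 6.83, 7.08 and 7.46 (log2 FC 1.29 ± 0.18, adjusted p = 0.00025). Neither gene overlapped between the groups. Ncapg was not well above background in any control and was at least 1.52-fold higher (adjusted p = 0.00954), Ccna2, cyclin A2, had a log2 FC of 1.31 ± 0.27, and Bub1b, a spindle checkpoint kinase, one of 1.39 ± 0.34 with an overlap of the groups. Bub1b remained a DEG in 4 of the 11 fits that left out 1 rat. Further genes, named after their values were seen, were Plk1, a mitotic kinase, at 9.30, 9.62, 9.69, 9.08 and 9.06 against 7.63, 8.21 and 8.58 (log2 FC 1.21 ± 0.16, adjusted p = 0.00025), and Mki67, the antigen of the Ki-67 proliferation stain, at 8.48, 8.73, 8.86, 8.69 and 8.51 against 7.24, 7.50 and 8.01 (log2 FC 1.11 ± 0.14, adjusted p = 0.000123). Ube2c, Ccnb1, Top2a and Cdk1 had log2 FC between 1.09 and 1.24, with no overlap. Foxm1, a transcription factor of these genes, had the smaller log2 FC of 0.61 ± 0.15 (adjusted p = 0.0241), and its groups overlapped.

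The median over the mitosis list stood 0.92, 1.12, 1.00, 0.91 and 0.68 above the control mean in exposed rats 1 to 5, and between -0.42 and 0.47 in the controls. Within the 4 slides the list's median log2 FC was 1.03, 0.52, 1.15 and 1.14, and with the slide as a block 38 of its genes were over-expressed DEGs. The 53 measured genes of DNA replication and repair moved less. Of these 2 were over-expressed, 52 were higher in exposed rats, and the median log2 FC was 0.36. Rrm2, a subunit of ribonucleotide reductase, had a log2 FC of 1.09 ± 0.18 (adjusted p = 0.00142) and Ccne1, cyclin E1, one of 0.90 ± 0.19 (adjusted p = 0.00834). The difference between both lists was not tested. On D28 the mitosis list had a median log2 FC of 0.31 and the replication list 0.23.

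**Figure D3:**
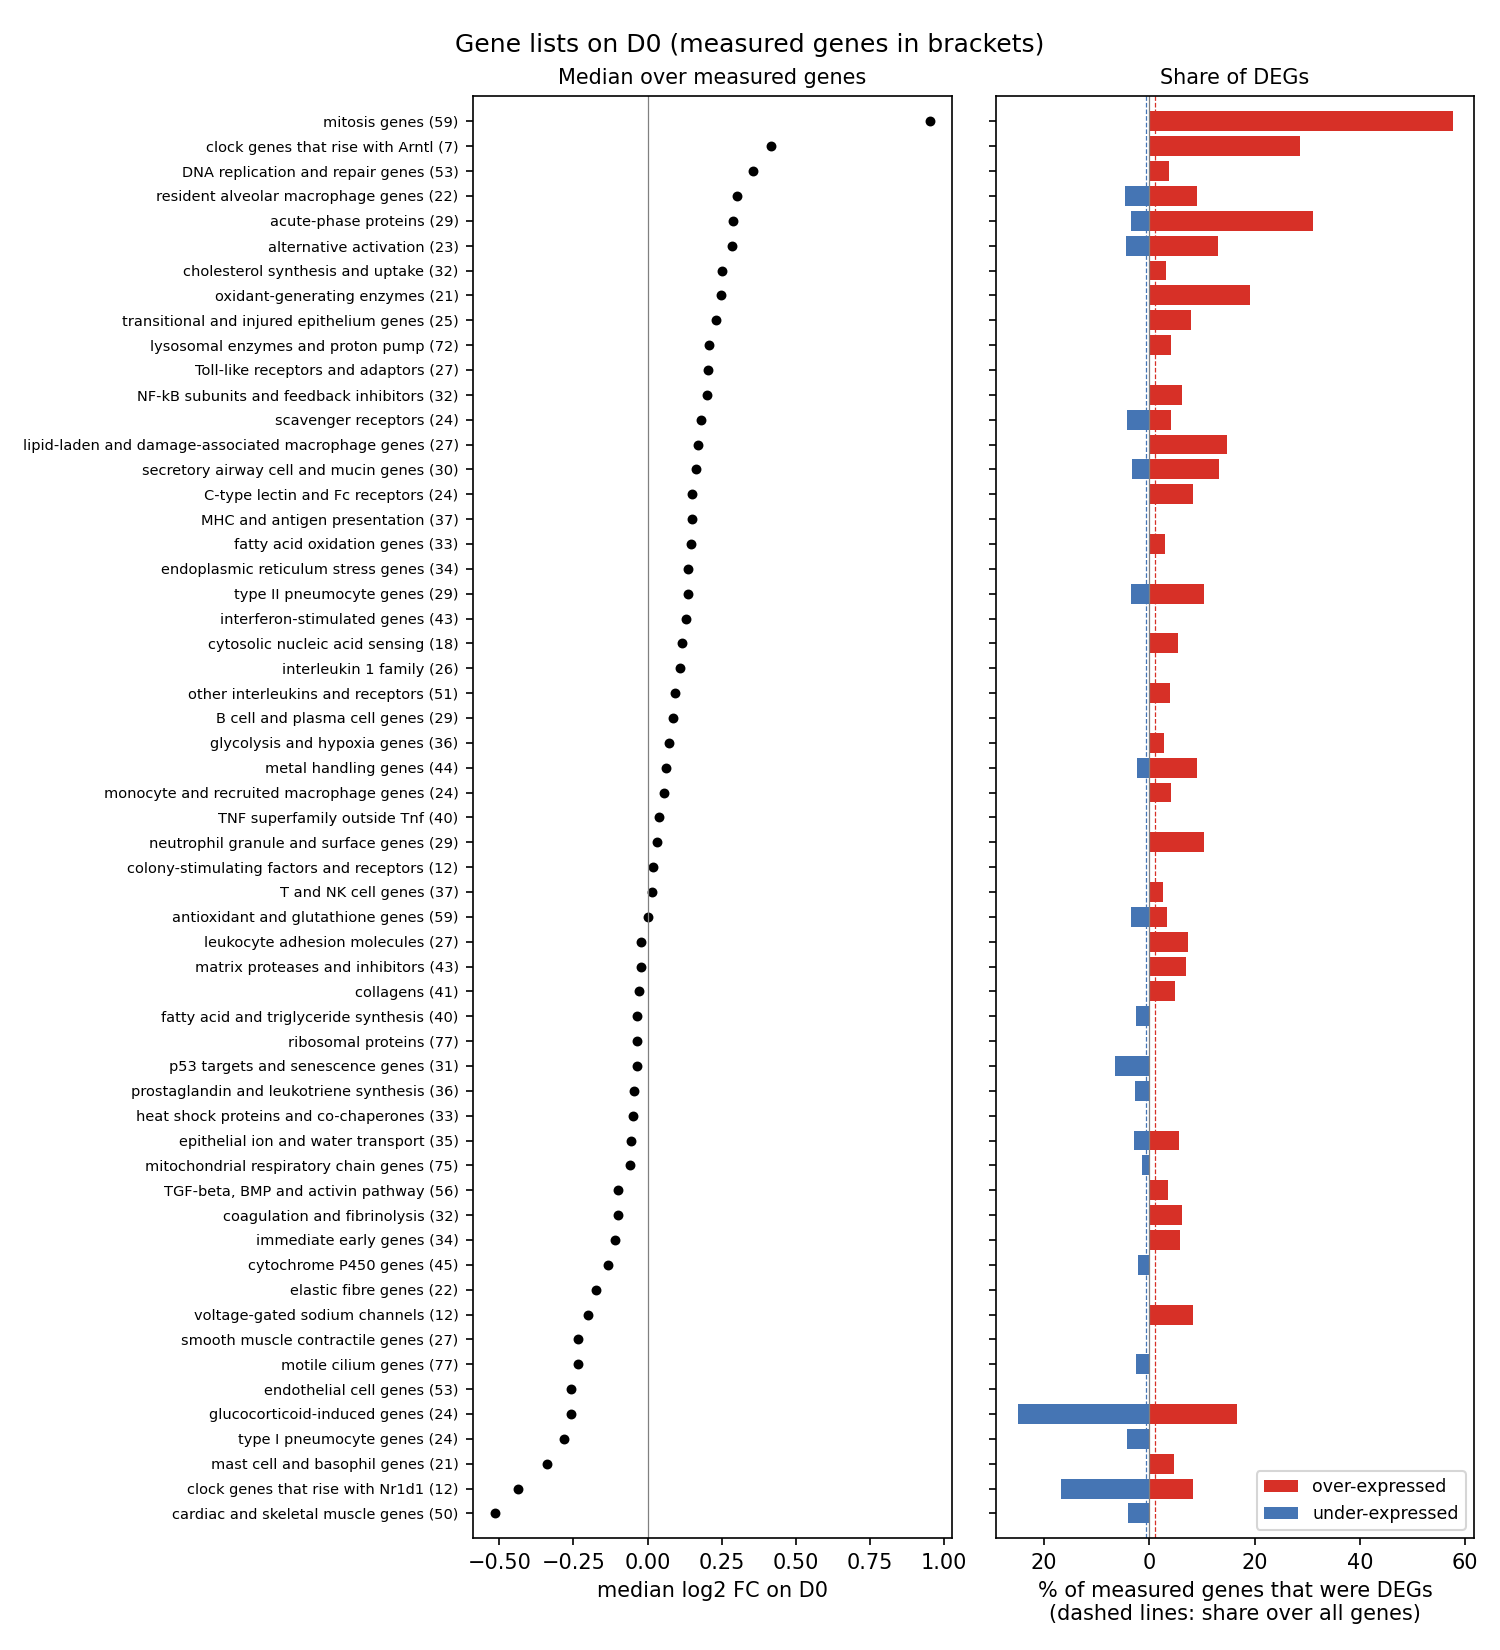
For each of the 57 lists, with its measured genes in brackets, the left panel shows the median log2 FC on D0 and the right panel the percentage of its genes that were over-expressed (red, to the right) or under-expressed (blue, to the left) DEGs, with the shares over all genes as dashed lines. The mitosis list lies apart at the top with a median of 0.95, and the list of cardiac and skeletal muscle genes is lowest with -0.52.

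Of 29 measured genes of the acute-phase list 9 were over-expressed, 1 was under-expressed, and the median log2 FC was 0.29. Saal1, which is in the list for its likeness to serum amyloid A, is counted among the 9. Beside Orm1 and Saal1, Lcn2, the iron-siderophore binding lipocalin 2, was at 11.52, 11.57, 11.35, 10.40 and 11.12 in exposed rats and at 9.14, 9.56 and 9.83 in controls (log2 FC 1.65 ± 0.28, adjusted p = 0.00139). A2m, the protease inhibitor alpha-2-macroglobulin, was at 6.87, 6.88, 7.26, 8.85 and 5.92 against 5.38, 5.60 and 5.87, with exposed rat 4 the highest (log2 FC 1.56 ± 0.34, adjusted p = 0.0119). In both genes all exposed rats were above all controls. The haemoglobin binder Hp (haptoglobin) had a log2 FC of 0.91 ± 0.15 (adjusted p = 0.000932) and the haem binder Hpx (hemopexin) one of 0.90 ± 0.21 (adjusted p = 0.02). Hamp, the iron hormone hepcidin, which is also induced by inflammation in the liver, was the under-expressed member, at 7.94, 8.07, 8.44, 7.11 and 7.61 against 8.34, 8.82 and 9.29. The groups of Hamp overlapped, its log2 FC was -1.01 ± 0.23 (adjusted p = 0.0183), and the call was lost without exposed rat 4 or 5, with adjusted p up to 0.0672. Itih4, chosen after its values were seen, was over-expressed with a log2 FC of 0.91 ± 0.17 (adjusted p = 0.00357).

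Among 44 measured genes of metal handling 4 were over-expressed and 1 under-expressed, with a median log2 FC of 0.06. Metallothioneins are small proteins that bind zinc and copper and are induced by the factor MTF-1 through metal response elements. The pattern TGCNCNC, looser than the core of these elements, was searched in the 250 bases before the RefSeq start of Mt1 and Mt2A. Mt1 lies at chr19:10832976-10833225 and Mt2A at chr19:10838709-10838958 of GRCr8, both on the minus strand, written 5′ to 3′ on the strand of the gene with the pattern in capitals on either strand.
Mt1: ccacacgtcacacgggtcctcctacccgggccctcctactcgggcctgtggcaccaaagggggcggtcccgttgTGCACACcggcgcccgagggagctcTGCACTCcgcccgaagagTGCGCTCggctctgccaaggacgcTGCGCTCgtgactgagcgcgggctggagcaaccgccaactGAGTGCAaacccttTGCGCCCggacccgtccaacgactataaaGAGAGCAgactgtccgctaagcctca
Mt2A: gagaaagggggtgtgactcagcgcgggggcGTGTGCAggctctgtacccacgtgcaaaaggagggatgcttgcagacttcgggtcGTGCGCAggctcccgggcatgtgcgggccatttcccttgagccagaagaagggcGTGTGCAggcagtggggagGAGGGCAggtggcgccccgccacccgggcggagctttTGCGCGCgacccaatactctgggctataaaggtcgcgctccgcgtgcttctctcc

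The pattern was found 7 times before Mt1 and 5 times before Mt2A, and some of these matches may be no metal response element. It was found at least once in 43.4% of all promoters and in 53.2% of those of genes tested, and at least 2 times in 14.4% and 20.6%. Mt2A was at 12.41, 12.15, 12.28, 12.61 and 12.34 in exposed rats and at 11.05, 11.35 and 11.68 in controls (log2 FC 1.00 ± 0.16, adjusted p = 0.00105). Mt1 was at 12.41, 12.34, 12.20, 12.68 and 12.02 against 11.39, 11.59 and 11.72 (log2 FC 0.75 ± 0.11, adjusted p = 0.000508). Both were higher in every exposed rat, and metallothioneins are close in sequence, so that their probes may share signal. The other DEGs of the list were Lcn2, Hpx and Hamp, given above.

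Of 21 measured oxidant-generating genes 4 were over-expressed and none under-expressed, with a median log2 FC of 0.25. Duox1, the dual oxidase that releases hydrogen peroxide at the airway surface, was at 10.37, 10.01, 9.88, 9.83 and 9.26 against 8.31, 8.71 and 8.87 (log2 FC 1.25 ± 0.19, adjusted p = 0.000663), and its maturation factor Duoxa1 had a log2 FC of 0.64 ± 0.14 (adjusted p = 0.0153). Noxo1 and Noxa1, the organiser and activator of the oxidase NOX1, had log2 FC of 0.90 ± 0.21 and 0.71 ± 0.14 (adjusted p = 0.0175 and 0.00526). None of the 4 overlapped between the groups, and Lpo, lactoperoxidase, which uses hydrogen peroxide in airway secretions and was chosen after its values were seen, was at 9.93, 9.72, 9.39, 8.43 and 8.85 against 7.43, 7.57 and 7.87 (log2 FC 1.64 ± 0.24, adjusted p = 0.000447). Of 59 antioxidant and glutathione genes 2 were over- and 2 under-expressed with a median of 0.00. Sod2, the mitochondrial superoxide dismutase, rose by 0.82 on the log2 scale (SE 0.12, adjusted p = 0.000635) and Srxn1, sulfiredoxin, by 0.69 (SE 0.10, adjusted p = 0.000508). The glutathione transferases Gsta3 and Gstm7 had log2 FC of -0.65 and -0.67 and remained DEGs in 2 and 1 of the 11 fits that left out 1 rat.

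Lists of macrophage genes held 1 to 4 over-expressed DEGs each, which was 4.17% to 14.8% of their measured genes, against 1.09% of all genes. Each held at most 1 under-expressed DEG, or 0% to 4.55%, against 0.695% of all genes. Of 23 genes of alternative activation 3 were over- and 1 under-expressed, with a median log2 FC of 0.29. Beside Retnla these were Chia, acidic mammalian chitinase, at 16.92, 16.56, 16.48, 15.54 and 16.35 against 14.57, 14.86 and 15.01 (log2 FC 1.54 ± 0.20, adjusted p = 0.000156), and the chitinase-like Chi3l1, at 12.54, 12.25, 11.68, 11.57 and 12.06 against 10.41, 10.88 and 11.11 (log2 FC 1.19 ± 0.24, adjusted p = 0.00619). Neither overlapped between the groups, and both are also known from lung epithelium. Alox15, a lipoxygenase of resident macrophages and eosinophils, was lower at 5.86, 5.55, 5.84, 6.83 and 5.86 against 6.62, 7.01 and 7.45, where exposed rat 4 overlapped the controls (log2 FC -1.03 ± 0.24, adjusted p = 0.0214). It remained a DEG in 6 of the 11 fits that left out 1 rat.

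Of 27 genes of lipid-laden and damage-associated macrophages 4 were over-expressed and none under-expressed, with a median of 0.17. Spp1, osteopontin, was at 11.37, 11.13, 11.05, 9.65 and 10.26 in exposed rats and at 7.19, 8.50 and 9.67 in controls, where exposed rat 4 just overlapped the highest control (log2 FC 2.20 ± 0.51, adjusted p = 0.0199). Leaving out control rat 4 or exposed rat 1, 2 or 3 ended the call of Spp1, with adjusted p up to 0.0583. Ctsk, the lysosomal protease cathepsin K, had a log2 FC of 0.67 ± 0.14 (adjusted p = 0.0096), and Atp6v0d2, a subunit of the lysosomal proton pump, one of 0.76 ± 0.17 (adjusted p = 0.0123). Of 72 measured genes of lysosomal enzymes and the proton pump 3 were over-expressed and none under-expressed, 60 were higher, and the median log2 FC was 0.21. The per-rat median of this list was 0.27, 0.21, 0.16, 0.16 and 0.14 above the control mean, with controls between -0.08 and 0.07. Npc2, which moves cholesterol out of lysosomes, rose by 0.76 on the log2 scale (SE 0.13, adjusted p = 0.00198).

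Resident alveolar macrophage genes held 2 over- and 1 under-expressed DEG of 22, monocyte and recruited macrophage genes 1 over-expressed of 24, scavenger receptors 1 and 1 of 24, and C-type lectin and Fc receptors 2 over-expressed of 24. The receptor subunit Itgam (CD11b) was at 9.04, 8.48, 8.58, 8.60 and 8.57 against 7.52, 7.65 and 7.87, with no overlap (log2 FC 0.99 ± 0.12, adjusted p = 0.000123). Siglec1, sialoadhesin of macrophages, was at 10.89, 10.65, 10.90, 11.48 and 10.47 against 9.93, 9.93 and 10.18 (log2 FC 0.89 ± 0.16, adjusted p = 0.00262), and Fcrl2, an Fc receptor-like gene, had a log2 FC of 1.08 ± 0.22 (adjusted p = 0.00781). Clec9a, a C-type lectin of dendritic cells, had a log2 FC of 1.00 ± 0.24 (adjusted p = 0.0242), and the scavenger receptors Olr1 and Colec12 had 0.79 ± 0.19 and -0.60 ± 0.14 (adjusted p = 0.0265 and 0.018), and these 3 calls held in 7, 5 and 7 of the 11 fits that left out 1 rat. Rnase3, a secreted ribonuclease, was lower, at 8.05, 8.53, 7.98, 7.83 and 8.49 against 8.91, 9.29 and 9.57 (log2 FC -1.101 ± 0.21, adjusted p = 0.00447). Siglec5, fixed as a marker of alveolar macrophages, had a log2 FC of 0.02. In bulk RNA of a lobe, fewer or more cells of a type and less or more RNA per cell cannot be told apart.

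Of 29 measured neutrophil granule and surface genes 3 were over-expressed, with a median log2 FC of 0.03 and 15 genes higher and 14 lower. Of the 3, Lcn2 and Hp are also made by lung epithelium. The third, Cd177, a neutrophil surface antigen, was at 13.77, 13.64, 13.44, 11.999 and 13.39 against 11.56, 12.24 and 12.42, so that exposed rat 4 lay within the controls and the others above them (log2 FC 1.095 ± 0.27, adjusted p = 0.028). Within slide 3, which holds exposed rat 4, the log2 FC of Cd177 was -0.373, and the call held in 5 of the 11 fits that left out 1 rat. The markers Cxcr2, Csf3r and S100a9 had log2 FC of -0.12, -0.19 and 0.63 with adjusted p of 0.986, 0.971 and 0.612. S100a9, a calcium-binding protein abundant in neutrophils, was at 15.35, 15.43, 15.50, 13.42 and 15.27 in exposed rats and at 13.88, 14.02 and 15.42 in controls. The median over the whole list stood 0.18, -0.03, 0.08, -0.28 and 0.28 from the control mean in exposed rats 1 to 5. Controls lay between -0.21 and 0.37, with control rats 3 and 6 at 0.37 and 0.22, so that the groups overlapped. Within slides 1, 3, 4 and 5 the list's median log2 FC was 0.44, -0.37, 0.02 and -0.32.

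Exposed rat 4 differed from the other exposed rats in lists of interferon, antigen presentation, T and NK cell and mast cell genes. The median of 43 interferon-stimulated genes stood 0.07, -0.05, 0.08, 0.58 and -0.16 from the control mean in exposed rats 1 to 5, with controls between -0.15 and 0.07, and none of the list was a DEG. Cxcl10, an interferon-induced chemokine, was at 8.75, 9.12, 10.13, 11.43 and 8.40 against 7.98, 8.41 and 9.56 (log2 FC 1.01 ± 0.44, adjusted p = 0.323). For 37 genes of MHC and antigen presentation the values were 0.19, 0.01, 0.05, 0.47 and 0.03, and none was a DEG. For 37 T and NK cell genes they were -0.28, -0.15, -0.19, 0.56 and 0.11. The 29 B cell and plasma cell genes, at 0.09, 0.06, 0.16, 0.05 and -0.14, did not set exposed rat 4 apart, and all exposed rats lay within the controls, between -0.16 and 0.15, except exposed rat 3. The 21 mast cell and basophil genes stood at -0.43, -0.39, -0.39, 0.33 and -0.47, with controls between -0.27 and 0.12, so that 4 exposed rats were below all controls and exposed rat 4 was above them. Prss30 was the only DEG of that list and rose in all 5 exposed rats, whereas Cpa3, a mast cell carboxypeptidase chosen after its values were seen, had a log2 FC of -0.21 ± 0.36. Exposed rat 4 was also the lowest exposed rat in 113 of the 252 over-expressed DEGs and exposed rat 5 in 89.

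**Figure D4:**
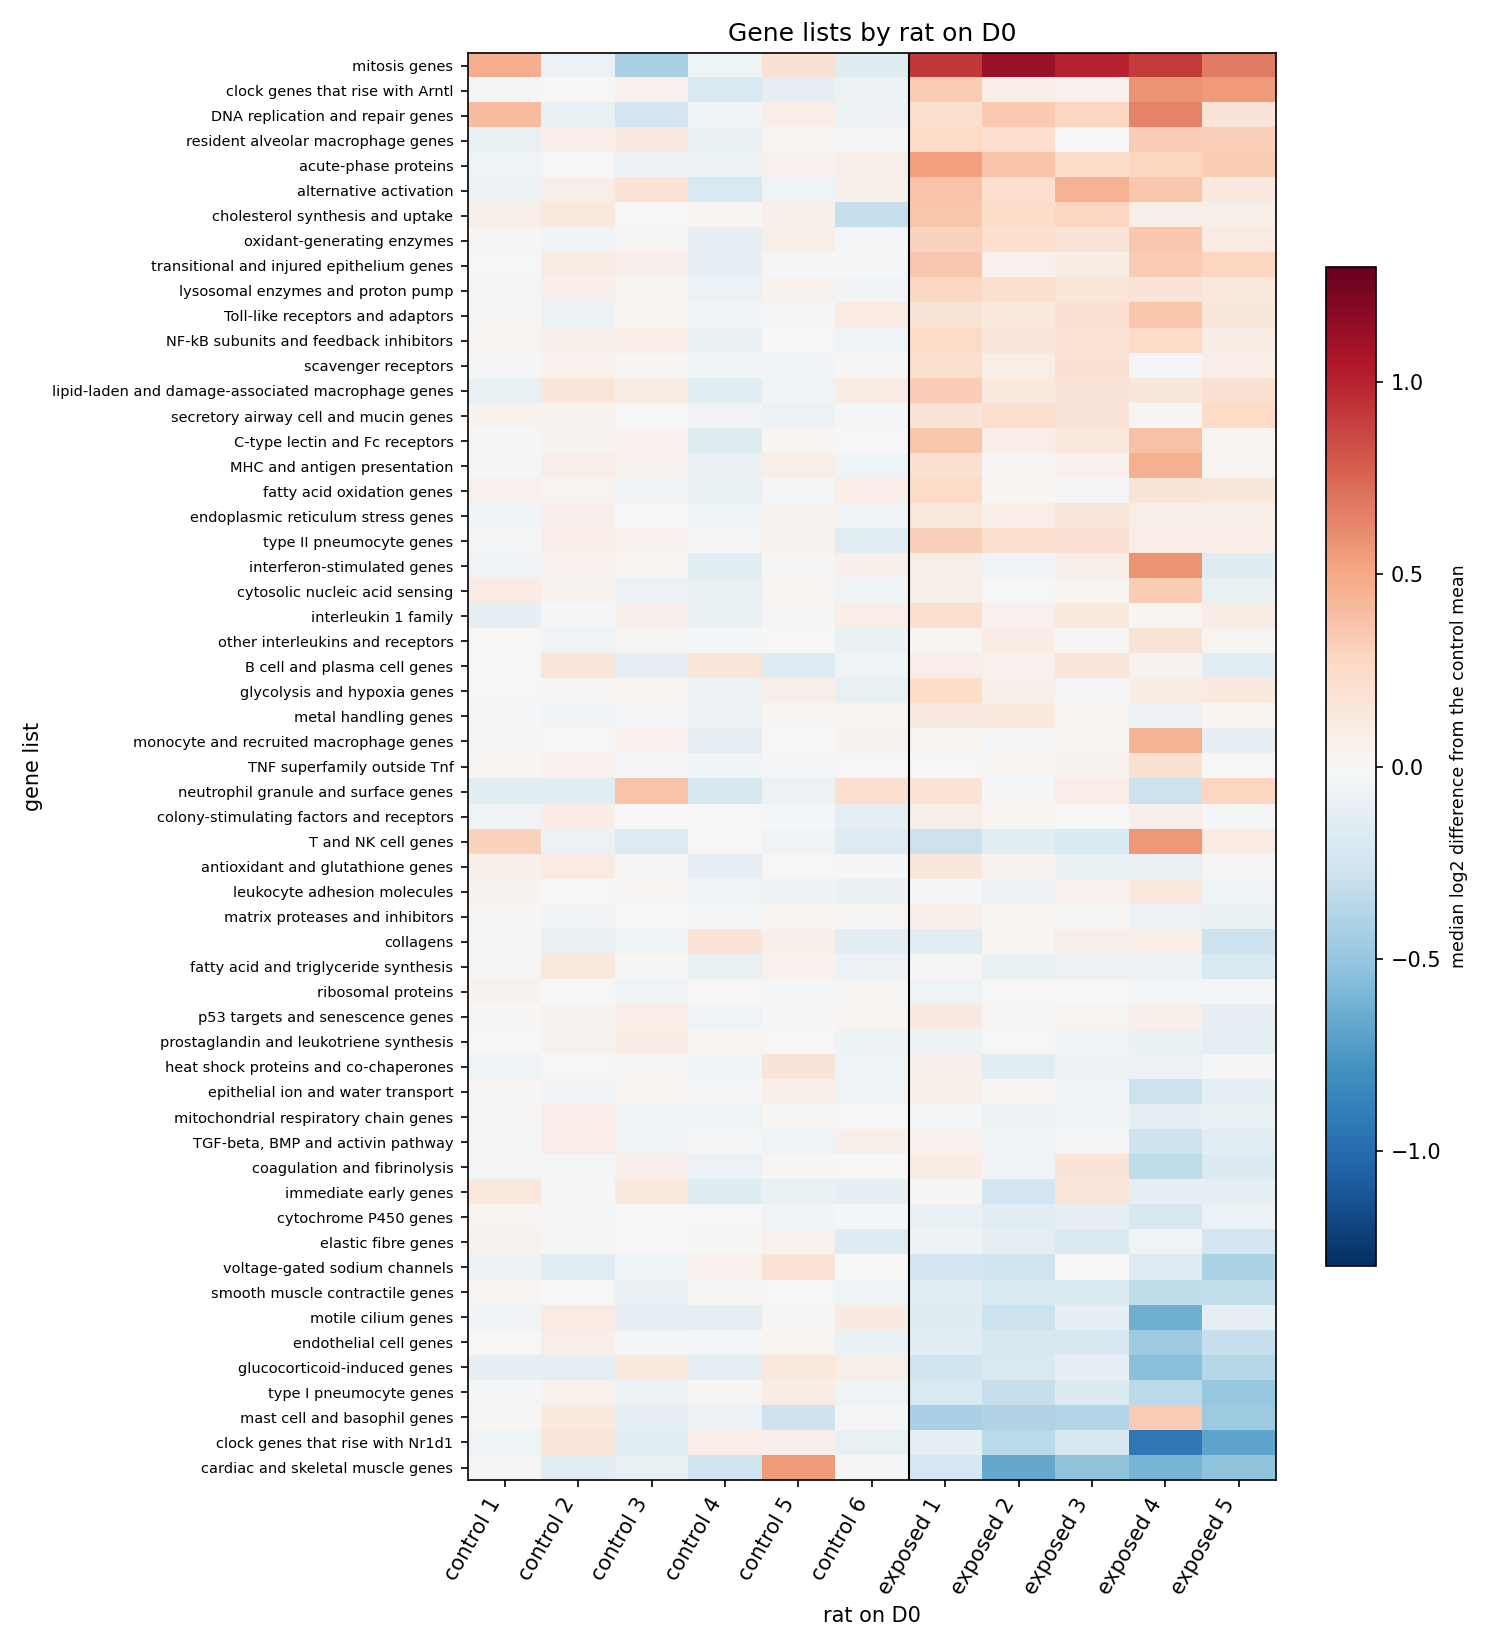
Each row is one of the 57 lists and each column one rat of D0, controls left and exposed rats right of the black line, and the colour is the median over the list of the log2 difference from the control mean (red higher, blue lower). The mitosis row is red in all 5 exposed rats, and exposed rat 4 differs from the other exposed rats in the rows of interferon-stimulated, MHC, T and NK cell, and mast cell genes.

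Genes of the epithelium went in both directions. Of 30 secretory airway cell and mucin genes 4 were over-expressed and 1 under-expressed, with a median log2 FC of 0.16. Gabrp, a GABA receptor subunit of epithelia, had a log2 FC of 1.25 ± 0.26 (adjusted p = 0.00975), and Muc1, a membrane mucin, was at 13.48, 13.31, 13.33, 12.87 and 12.90 against 12.36, 12.55 and 12.69 (log2 FC 0.64 ± 0.14, adjusted p = 0.0101). Agr3, a protein disulfide isomerase of ciliated cells, had a log2 FC of -0.73 ± 0.18 (adjusted p = 0.0257) and kept its call in 5 of 11 fits that left out 1 rat. Of 25 genes of transitional and injured epithelium 2 were over-expressed, Fosl1 and Mmp7, with a median of 0.23. Mmp7, matrilysin of injured epithelium, was at 8.71, 8.63, 8.62, 8.002 and 8.32 against 6.56, 6.69 and 7.39 (log2 FC 1.60 ± 0.25, adjusted p = 0.000903). Of 29 type II pneumocyte genes 3 were over-expressed (Lcn2, Chi3l1 and Muc1) and 1 under-expressed (Scd), with a median of 0.14, while Sftpc, Sftpb and Lamp3 had log2 FC of 0.06, 0.08 and 0.15. Cfi, complement factor I, which was chosen after its values were seen, was at 13.67, 13.47, 13.34, 12.25 and 12.72 against 11.31, 11.39 and 11.60 (log2 FC 1.65 ± 0.21, adjusted p = 0.000123).

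Lists of type I pneumocytes, motile cilia, vessels and muscle held 0 to 2 DEGs each and mostly small negative log2 FC. The under-expressed DEGs were 0% to 4.17% of their measured genes, against 0.695% of all genes. Of 24 type I pneumocyte genes 22 were lower, the median log2 FC was -0.28, and 1 was an under-expressed DEG. This was Igfbp2, an insulin-like growth factor binding protein, at 9.83, 9.95, 10.22, 9.57 and 10.17 against 10.55, 10.83 and 11.32 (log2 FC -0.92 ± 0.14, adjusted p = 0.000663). Ager had a log2 FC of -0.22 (adjusted p = 0.496), and Aqp5, the water channel of type I cells, one of -0.47 ± 0.12 (adjusted p = 0.0318), which is under the FC limit. Of 53 endothelial genes 49 were lower with a median of -0.26 and none was a DEG, and Cav1 (caveolin 1) and Ednrb (an endothelin receptor) had log2 FC of -0.49 ± 0.09 and -0.52 ± 0.09 (adjusted p = 0.00262 and 0.00185), also under the limit. S1pr1, a receptor of endothelium and lymphocytes, is not in this list and was an under-expressed DEG, given under the other observations. Of 27 smooth muscle contractile genes 24 were lower with a median of -0.23 and no DEG. The exposed rats' medians were -0.14, -0.21, -0.21, -0.46 and -0.30 in the endothelial list and -0.15, -0.20, -0.17, -0.33 and -0.32 in the smooth muscle list, below all controls in both.

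Of 77 motile cilium genes 69 were lower, the median log2 FC was -0.23 and 2 were under-expressed. Spag16, of the central pair of the axoneme, had a log2 FC of -0.85 ± 0.20 (adjusted p = 0.018) and Fam183a one of -0.62 ± 0.12 (adjusted p = 0.00407), and leaving out exposed rat 4 ended both calls. In the per-rat medians of this list, -0.16, -0.28, -0.11, -0.63 and -0.13, exposed rat 4 was again the farthest. Of 50 cardiac and skeletal muscle genes 45 were lower with a median of -0.52 and 2 were under-expressed, Myoz1 and Myl7. The controls were uneven in this list, with control rat 5 at 0.56 and the others down to -0.26, and Ckm, muscle creatine kinase, reached 10.62 in that rat against a control median of 8.39. Leaving out control rat 5 ended the calls of both Myoz1 and Myl7. Myoz1 kept its call in 10 and Myl7 in 6 of the 11 fits that left out 1 rat, and Myl7 was no DEG with the slide as a block. Within the 4 slides the median was -0.01, -0.92, -0.36 and -0.41, with control rat 5 in the slide of -0.92. The part of muscle tissue around the lobe in these values was not tested.

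Glucocorticoid-induced genes were split. Of 24 measured 6 were under-expressed and 4 over-expressed, with a median log2 FC of -0.26. Under-expressed were Klf15, Zbtb16 and Per1, and, named after their values were seen, Klf9, a transcription factor of the same family as Klf15, with a log2 FC of -0.86 ± 0.16 (adjusted p = 0.00313), Map3k6, a stress kinase, with -0.90 ± 0.18 (adjusted p = 0.00559), and Errfi1, an inhibitor of the EGF receptor, with -0.68 ± 0.18 (adjusted p = 0.0428). Klf9 was at 10.95, 11.15, 11.34, 10.75 and 10.72 against 11.75, 11.84 and 11.95, with no overlap. The over-expressed genes, Lcn2, Mt1, Mt2A and Angptl4, are also known to be induced by inflammation, metals or fatty acids. Angptl4, an inhibitor of lipoprotein lipase, had a log2 FC of 1.09 ± 0.26 (adjusted p = 0.0241), was higher in 3 of the 4 slides and remained a DEG in 4 of 11 fits that left out 1 rat. Fkbp5, Tsc22d3 and Sgk1, which are often read as indicators of glucocorticoid action and were chosen after their values were seen, had log2 FC of -0.43, -0.47 and 0.25, with adjusted p of 0.532, 0.213 and 0.543.

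Of 40 genes of fatty acid and triglyceride synthesis Scd was the only DEG, and the median log2 FC was -0.03. Of 32 genes of cholesterol synthesis and uptake 27 were higher with a median of 0.25, and the 1 over-expressed DEG, Hmgcs1 of the mevalonate pathway, had a log2 FC of 0.69 ± 0.17 (adjusted p = 0.0333) and overlapped between the groups. Fatty acid oxidation held 1 over-expressed DEG of 33 (Angptl4), glycolysis and hypoxia 1 of 36, which was Hk3, a hexokinase of leukocytes, at 10.36, 10.19, 10.27, 10.60 and 10.16 against 9.39, 9.54 and 9.72 (log2 FC 0.76 ± 0.10, adjusted p = 0.000219). Cytochrome P450 genes held 1 under-expressed DEG of 45, Cyp4b1, which oxidises foreign compounds in the airway and had a log2 FC of -0.77 ± 0.16 (adjusted p = 0.00741). Of 75 mitochondrial respiratory chain genes 58 were lower with a median of only -0.06, and Cox8b, a muscle form of a cytochrome c oxidase subunit, was the DEG (log2 FC -0.79 ± 0.15, adjusted p = 0.00439).

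Further lists held at most 3 over-expressed and 2 under-expressed DEGs each. Where a list held any, the share was 3.57% to 7.41% over-expressed and 2.78% to 6.45% under-expressed, against 1.09% and 0.695% of all genes. Each share rests on 1 to 3 genes. NF-kB subunits and feedback inhibitors had 2 over-expressed of 32, with Tnfaip2, a TNF-induced gene, at 10.84, 10.58, 10.88, 10.18 and 10.85 against 9.05, 9.63 and 9.86 (log2 FC 1.105 ± 0.18, adjusted p = 0.000992), and Bcl3, an atypical inhibitor of the family, with 0.65 ± 0.14 (adjusted p = 0.0096). Other interleukins and receptors had 2 of 51, Il24, a cytokine of the interleukin 10 family, with 1.39 ± 0.25 (adjusted p = 0.00313), and Osm, oncostatin M, with 0.59 ± 0.11 (adjusted p = 0.00357). Leukocyte adhesion molecules had 2 of 27 (Itgam and the endothelial selectin Sele, log2 FC 1.23 ± 0.30, adjusted p = 0.0254), and coagulation and fibrinolysis 2 of 32 (Kng1, kininogen, 1.26 ± 0.24, and the protease inhibitor Serpine2, 1.08 ± 0.14). Tmem173, the nucleic acid sensor STING, was the 1 over-expressed gene of 18 in cytosolic nucleic acid sensing, at 10.02, 9.92, 9.80, 9.66 and 9.59 against 8.60, 8.85 and 8.98 (log2 FC 0.96 ± 0.15, adjusted p = 0.000883). Collagens held 2 over-expressed of 41, Col16a1 with 0.70 ± 0.11 and Col9a2 with 0.70 ± 0.13 (adjusted p = 0.000932 and 0.00425), matrix proteases and inhibitors 3 of 43 (Mmp7, Ctsk and Mmp14), and the TGF-beta, BMP and activin pathway 2 of 56 (the BMP antagonist Nog and the receptor Tgfbr1). Immediate early genes held Fosl1 and Nr4a3 of 34, p53 targets and senescence genes the under-expressed Perp and Igfbp5 of 31, prostaglandin and leukotriene synthesis Alox15 of 36, and epithelial ion and water transport Aqp3 and Slc26a4 over- and Nkain4 under-expressed of 35.

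No DEG was found in 13 lists, which, beside the interferon, MHC, endothelial and smooth muscle lists, were the interleukin 1 family (26 measured), colony-stimulating factors and receptors (12), the TNF superfamily outside Tnf (40), Toll-like receptors and adaptors (27), B cell and plasma cell genes (29), heat shock proteins and co-chaperones (33), endoplasmic reticulum stress genes (34), ribosomal proteins (77) and elastic fibre genes (22). In each of these lists the 2 genes with the smallest p are given. In the TNF superfamily, Tnfrsf11b, the decoy receptor osteoprotegerin, had a log2 FC of -0.41 ± 0.11 (adjusted p = 0.045) and the TWEAK receptor Tnfrsf12a one of 0.61 ± 0.17 (adjusted p = 0.0501), in opposite directions. The interleukin 1 antagonist Il1rn had 0.58 ± 0.17 and the adaptor Myd88 0.27 ± 0.11 (adjusted p = 0.0771 and 0.269), and the growth factors Csf1 and Kitlg had 0.38 ± 0.14 and -0.20 ± 0.09 (adjusted p = 0.18 and 0.313). Cd14, the lipopolysaccharide coreceptor, had 0.50 ± 0.14 and Tlr2 0.42 ± 0.15 (adjusted p = 0.0676 and 0.155), and 24 of the 27 genes of their list were higher, with a median of 0.20. Usp18 of the interferon list had 0.38 ± 0.16 (adjusted p = 0.278).

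Several of these genes passed the limit on the adjusted p but not that on the FC. Mfap5 and Efemp1 of the elastic fibre list fell by 0.58 and 0.52 on the log2 scale (adjusted p = 0.000635 and 0.00834), the smooth muscle genes Ppp1r14a and Mylk by 0.57 and 0.48 (adjusted p = 0.0165 and 0.0241), and the small heat shock proteins Hspb2 and Cryab by 0.41 and 0.29 (adjusted p = 0.0233 and 0.046). Spib, a transcription factor of B cells, fell by 0.54 (adjusted p = 0.00887). Ifi30 and Ctss, which process antigens in the lysosome, had log2 FC of 0.44 and 0.45 (adjusted p = 0.0125 and 0.0324), and Derl3, of the B cell and endoplasmic reticulum stress lists, had 0.49 (adjusted p = 0.032). Vldlr of the latter list had -0.63 ± 0.17 (adjusted p = 0.0547). The 77 ribosomal protein genes had log2 FC from -0.18 to 0.15, led by Rpl9 and Rps14 with -0.11 and -0.18 (adjusted p = 0.506 and 0.524), and none had an unadjusted p below 0.05. Of the cell type markers not yet given, Scgb3a2 of secretory airway cells had 0.49 ± 0.15 (adjusted p = 0.0801). Rtkn2, Pecam1, Cdh5, Cd3e, Cd79a, Ms4a1, Myh11, Acta2, Tnnt2, Acta1, Hba1, Hbb, Alas2 and Cd1d1 had log2 FC between -0.48 (Alas2) and 0.09 (Cd3e), with the smallest adjusted p, 0.14, in Cdh5.

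Clock genes were among the few whose effect differed between the days. On D0, 12 genes that rise with Nr1d1 had a median log2 FC of -0.44, with Nr1d1 and Per1 under-expressed and Bhlhe41 over-expressed, and 10 of them were lower. The 7 genes that rise with Arntl had a median of 0.42, with 4 higher, 3 lower and Cry1 among the over-expressed DEGs. Per1, a clock repressor that glucocorticoids also induce, was at 8.56, 9.10, 10.15, 9.11 and 9.02 against 10.13, 10.55 and 11.04, where exposed rat 3 overlapped the controls (log2 FC -1.41 ± 0.33, adjusted p = 0.0182). Cry1, a repressor of CLOCK and ARNTL, was at 9.98, 9.76, 9.73, 9.57 and 9.86 against 8.79, 8.98 and 9.14, with no overlap (log2 FC 0.81 ± 0.14, adjusted p = 0.00159). Dbp, a transcription factor under direct control of the clock, was at 13.15, 13.04, 12.86, 12.34 and 12.18 against 13.39, 14.02 and 14.14, with no overlap but an adjusted p of 0.0842 (log2 FC -1.16 ± 0.35). Arntl itself and Npas2, a paralogue of CLOCK, both chosen after their values were seen, had log2 FC of 0.58 ± 0.26 and -0.40 ± 0.19 (adjusted p = 0.344 and 0.433). The hour at which each rat was killed is not given in the sources used here, and its part in these values was not tested.

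The effect of exposure differed between D0 and D28 in 7 genes (0.0304% of those tested, adjusted p of the difference below 0.05), and at an unadjusted p below 0.05 in 793. For Nr1d1 the D28 controls were at 6.61 ± 0.68 and the D28 exposed rats at 8.60 ± 0.76 (SD, n = 6 each), so that the exposed rats were higher there and lower on D0, and the effects differed by -4.49 ± 0.52 (SE, adjusted p = 0.000232). Dbp was at 9.74 ± 0.33 and 12.49 ± 1.01 on D28 (difference of effects -3.91 ± 0.48, adjusted p = 0.000519), and Nr1d2, the paralogue of Nr1d1, at 8.53 ± 0.35 and 9.64 ± 0.43 (-1.80 ± 0.29, adjusted p = 0.0126). Cry1 went the other way, at 9.17 ± 0.30 and 8.31 ± 0.26 on D28 (1.67 ± 0.19, adjusted p = 0.000232). The other genes were Rasd2, a small GTPase (-1.97 ± 0.27, adjusted p = 0.00242), Grin2c, an NMDA receptor subunit (-0.81 ± 0.13, adjusted p = 0.0126), and Prss30 (1.55 ± 0.26, adjusted p = 0.0229). Prss30 was at 7.57 ± 0.19 in the D28 controls and 8.58 ± 0.54 in the D28 exposed rats, so that it was higher in exposed rats on both days and by more on D0.

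**Figure D5:**
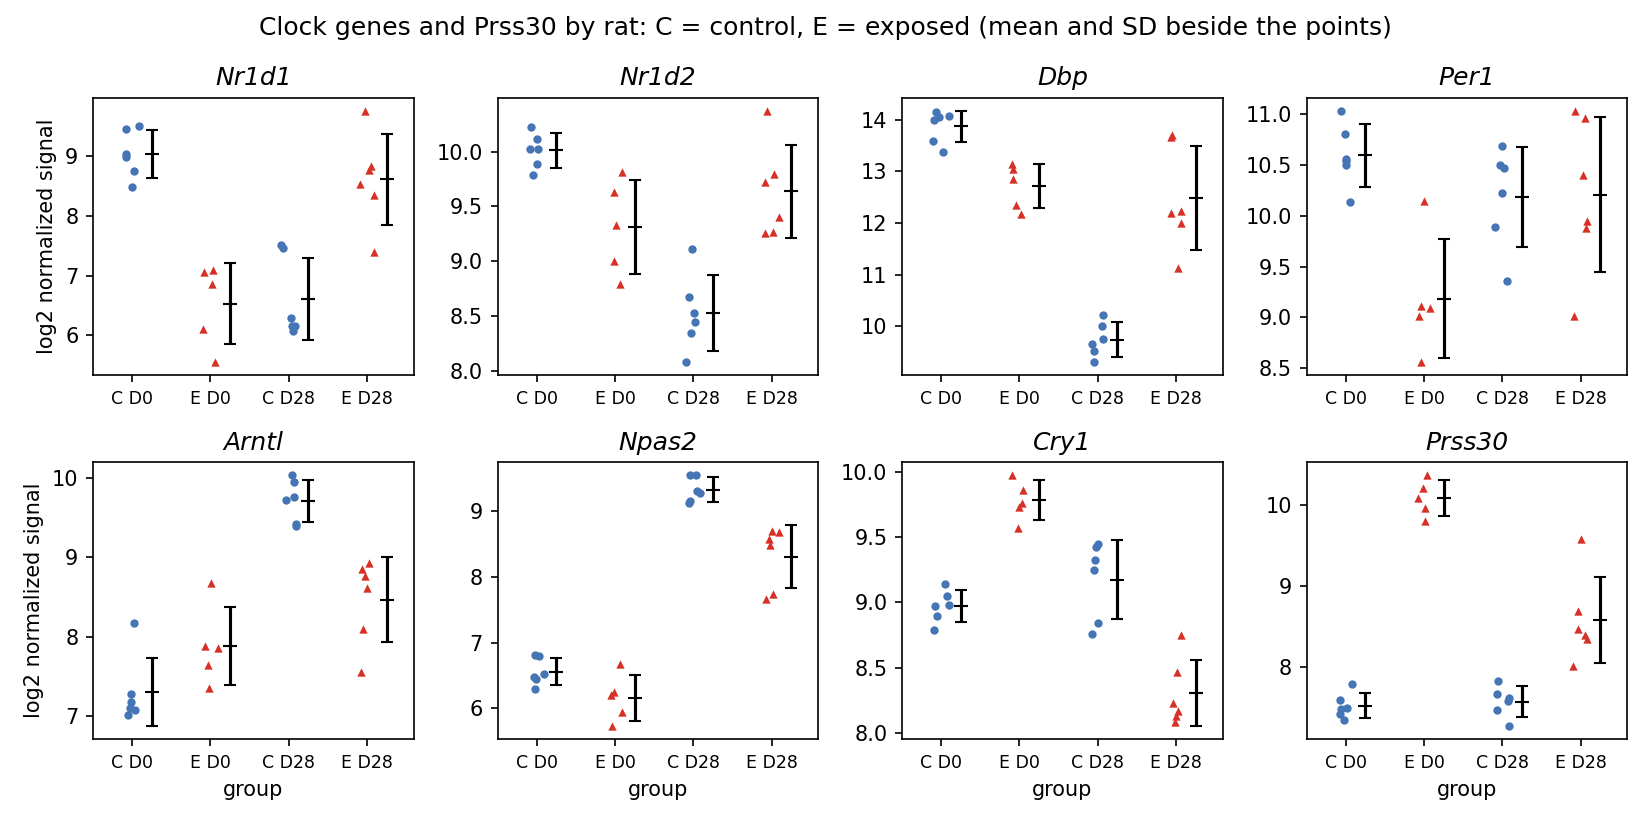
Points are single rats, with the log2 normalized signal on the y axis and the control (C, blue circles) and exposed (E, red triangles) groups of D0 and D28 on the x axis, and the mean and SD stand beside the points. For Nr1d1 the exposed rats lie below the controls on D0 and their mean lies above the control mean on D28 (8.60 against 6.61), and Prss30 is higher in exposed rats on both days.

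Outside these 7 genes the difference between the days did not pass the threshold. Of the 252 over-expressed DEGs of D0 240 had a positive log2 FC on D28, and of the 160 under-expressed 149 had a negative one. Orm1 and Scn10a had log2 FC of 3.62 and 3.26 on D28, near those of D0, while Tent5b and Dnase2b had 0.04 and 0.08 there. The differences of these 4 genes were not past the threshold.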

How the data were processed

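RNA of the accessory lobe was hybridised to single-colour Agilent rat arrays, with 11 arrays of D0 (6 control, 5 exposed) and 12 of D28, each of 1 rat, grouped by the sample titles. For the exposed rats of D28 the source field names day 0, and the titles and descriptions, which name day 28, were followed. The authors deposited the scanner output of each array, intensities per spot from Feature Extraction (22 arrays by version 11.0.1.1, 1 array by version 12.0.1.1), and a table of all arrays with quantile normalized intensities on the linear scale. Per the methods the authors used eUTOPIA with a filter against negative controls, quantile normalization, a batch correction whose batches are not named, and limma.

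Here, from the processed signal, which the scanner software corrects for background, control spots were left out and spots marked as outliers were set missing. A probe had to exceed, on at least 5 arrays, the 95th percentile of that array's 308 negative controls, which kept 40417 of 45598, log2 values were quantile normalized over the 23 arrays, and 32415 probes with a symbol were averaged to 23029 genes, after 29 with a missing value were dropped. Symbols were taken by probe name from the single array of the later software version, and 33 list genes were found through RefSeq synonyms (GRCr8). One limma model (version 3.58.1, R 4.3.3) gave each of the 4 groups a mean, with 19 residual degrees of freedom and no batch term. The contrasts were exposed against control on D0, the same on D28, and their difference. Quality measures were compared by two-sided exact permutation tests over 462 splits. The steps were tested on simulated data.

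The 57 lists and the comparisons were chosen with earlier results of these data known, and lists were not tested as sets. Named genes were the 15 over- and 10 under-expressed DEGs with the largest FC among those without overlap (locus symbols apart), the 10 DEGs with the smallest adjusted p, up to 5 DEGs per list or the 2 genes with the smallest p where a list held none, the 7 genes whose effect differed between days, and the markers. Genes outside this rule are said to be chosen after their values were seen. One of the genes that the rule names is not reported here. As alternatives, other scaling (75th percentile, cyclic loess), normexp with 50 added, the deposited table, other probe filters and summaries, only the D0 arrays, other variance estimation, array weights, blocks for slide or replicate number, other thresholds, and leaving out each rat were run. The labels do not say more of how the rats were drawn than 1 rat per array, and the number of arrays limits the precision.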

Additional observations from a re-analysis of the deposited data

Results flagged for a closer look

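In each named gene the most extreme rat of a group of D0 was set against the rest by its gap to the nearest rat, divided by the range of the group. Of 416 groups 26, all of named genes, had a gap past the 95% critical value of Dixon, and chance flags about 1 in 20 groups.

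Exposed rat 4 accounted for several of them. It was low in RGD1309110 (gap 0.819 of the range, 9.67 against the nearest rat at 11.14), Cd177 (0.786), Kng1 (0.77), S100a9 (0.886), Perp (0.751), Col9a2 (0.717) and Kitlg (0.711), and high in Alox15 (0.757). S100a9 and Cd177, both abundant in neutrophils, were at 13.42 and 11.999 in this rat and at 15.27 and 13.39 in the nearest exposed rat. Among the other exposed rats, rat 1 was high in Itgam (0.784), rat 3 was high in Efemp1 (0.784) and Ms4a1 (0.848), and rat 5 was low in Bub1b (0.814) and Aqp5 (0.743). Rat 2 was high in Alb (0.714) and Dntt (0.829), both of which were not well above background on any array of D0.

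Among controls, rat 5 was high in the muscle genes Myoz1 (0.789, 9.52 against 8.97) and Ckm (0.642, 10.62 against 8.75) and in Apoa1 (0.707, not well above background). Control rat 6 was low in Fcrl2 (0.74), Cd177 (0.673) and Rasd2 (0.653) and high in Slamf8 (0.665). Control rat 3 was high in Arntl (0.774) and Stc2 (0.809) and low in Ednrb (0.698), and control rat 4 was high in Vldlr (0.63).

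The effect of exposure differed between D0 and D28 by limma's test of the difference in 7 genes. On the log2 scale, as the effect on D0 minus that on D28, it differed by 1.674 in Cry1, -4.492 in Nr1d1, -3.906 in Dbp, -1.974 in Rasd2, -1.805 in Nr1d2, -0.8138 in Grin2c and 1.554 in Prss30. Over 22 alternative fits the difference passed the threshold in 22 for the first 5 of these genes, in 20 for Grin2c and in 14 for Prss30, with adjusted p up to 0.136 and 0.147 in the last 2.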

How the results depend on the processing

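Of 252 over-expressed and 160 under-expressed DEGs the numbers were 151 and 70 with normexp background correction, which compresses low signals, 402 over-expressed with array quality weights, 310 under-expressed with no FC limit, and 516 and 430 with an unadjusted p. The genes whose effect differed between D0 and D28 numbered 16 with normexp, 12 with an intensity trend and robust estimation, and 461 with an unadjusted p and the FC limit, against 7. Leaving out 1 rat gave 189 to 239 over-expressed and 101 to 157 under-expressed DEGs, with the lowest of the latter, 101 and 102, without exposed rat 4 and 5, and 6 to 9 genes whose effect differed between days and 1120 to 1349 genes without overlap, which needs fewer rats to agree. With the slide as a block there were 310 over-expressed and 196 under-expressed DEGs, and 6 genes with a different effect. With only the D0 arrays there were 237 over-expressed and 165 under-expressed DEGs, and 342 of the 412 were kept. The other settings stayed within 1.5 times. No DEG had the opposite sign under any setting of the whole data set, and 154 of the 412 (114 over- and 40 under-expressed) were called in all 12 other settings and all 11 fits without 1 rat, while 182 were called in all settings and 226 in all fits without 1 rat. Of all 412 DEGs, 395 had the same direction in all slides. Among the named genes, the log2 FC within a single slide was -0.373 for Cd177 in slide 3, 0.0117 for Per1 in slide 5 and -0.0977 for Angptl4 in slide 5. The cause was not tested. The number of over-expressed DEGs in the mitosis list ranged from 21 to 38 over the settings and from 25 to 38 without 1 rat, against 34.

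The replicate block gave 214 over-expressed and 142 under-expressed DEGs and 5 genes whose effect differed between days. Rats with the same number did not deviate together (correlations of -0.117 to -0.225), and each exposed array followed best a control array with another number, so that the numbers do not pair the rats.

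The main limits are the number of rats, the spread of exposed rat 4, and dim probes, for which values near background are bounds. Cd177, Angptl4, Bub1b, Nr4a3, Zbtb16, Serpina3n, Errfi1, Gsta3, Gstm7, Perp, Igfbp5, Hmgcs1, Wt1, Mmp14, Olr1, Osm, Agr3, Tgfbr1, Bhlhe41, Gpm6a, Stil and Foxm1 were called in 5 or fewer of the 11 fits without 1 rat.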

Other observations

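Some under-expressed DEGs belong to none of the lists above and are given as single genes, chosen after their values were seen. Upk1b, a uroplakin, was at 11.64, 11.59, 11.62, 11.41 and 11.71 in exposed rats and at 12.07, 12.27 and 12.37 (lowest, median and highest) in controls, with no overlap (log2 FC -0.65 ± 0.12, adjusted p = 0.00465). Lrrn4 was at 7.25, 7.04, 7.08, 7.13 and 6.91 against 7.49, 7.75 and 7.88 (log2 FC -0.62 ± 0.12, adjusted p = 0.00467), Gpm6a, a membrane glycoprotein, had a log2 FC of -0.79 ± 0.19 (adjusted p = 0.0272) and the transcription factor Wt1 one of -0.62 ± 0.17 (adjusted p = 0.0464). Wt1 kept its call in 1 of the 11 fits that left out 1 rat and Gpm6a in 4, whereas Upk1b kept it in 11 of 11.

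Further genes chosen in the same way include regulators of vessels and growth. Vegfd, a lymphatic growth factor, was at 7.09, 6.95, 7.32, 7.40 and 6.38 against 7.82, 8.0 and 8.29 (log2 FC -0.98 ± 0.18, adjusted p = 0.00313), and S1pr1, a sphingosine phosphate receptor of endothelium and lymphocytes, at 11.96, 12.01, 12.33, 11.66 and 11.98 against 12.59, 12.74 and 12.90 (log2 FC -0.75 ± 0.15, adjusted p = 0.0057). Both were lower in every exposed rat. Ihh, the ligand Indian hedgehog, had a log2 FC of -0.88 ± 0.15 (adjusted p = 0.00132), Stc2, stanniocalcin 2, one of -1.37 ± 0.30 (adjusted p = 0.0115), and Esrrg, an estrogen-related receptor, one of -1.34 ± 0.22 (adjusted p = 0.00123). Among over-expressed genes Gch1, the first enzyme of tetrahydrobiopterin synthesis, was at 10.45, 10.56, 10.43, 10.53 and 10.43 against 9.44, 9.71 and 9.88, with a narrow spread in exposed rats (log2 FC 0.79 ± 0.12, adjusted p = 0.000525). The macrophage receptors Slamf8 and Slamf9 had log2 FC of 0.93 ± 0.13 and 0.97 ± 0.20 (adjusted p = 0.000485 and 0.00836), and Lce1l, of the family of late cornified envelope proteins of the skin, one of 1.20 ± 0.21 (adjusted p = 0.00207).

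Of 7990 tested probes without a symbol 18 were over- and 18 under-expressed by the same thresholds (0.451%), against 1.44% of the probes with a symbol.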
